A study of Drosophila melanogaster with 3 samples.

Results

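In whole fruit fly embryos, 251 of the 9624 reproducible peaks of GFP-tagged Grauzone lay at the starts of noncoding RNA genes and not within 500 bp of a protein-coding start. They were chosen by position alone. The point source of each, which is the most enriched base of the peak, lay within 500 bp of an annotated start of an ncRNA, tRNA, snRNA or snoRNA gene and farther than 500 bp from every protein-coding start. The list held 3879 peaks at protein-coding starts and 5494 away from both kinds of start, and these served for comparison. The value given for a peak is the authors' signal value, whose scale was not stated, so it is read within a list only.

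ChIP-seq, which sequences the DNA that an antibody brings down together with a chromatin protein, was run on 1 group with 3 biological replicates. The embryos came from a transgenic line with GFP fused to the C-terminus of grau, were 0 to 24 hours old and of both sexes, and the antibody was against GFP. The tagged protein stands in for the untagged one, and whole embryos mix all cell types and many stages, so no cell type can be assigned to a peak. A control experiment is named in the labels and was not analysed here, so no background measured the same way stands beside the values, and the read depth behind a peak is unknown.

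Grauzone belongs to the ZAD class of zinc finger proteins and is known in the fly to switch on the meiosis gene cortex. Noncoding genes are read by different machinery. RNA polymerase II makes long noncoding RNAs (lncRNAs), antisense RNAs (asRNAs), microRNA (miRNA) precursors and most spliceosomal snRNAs. RNA polymerase III makes tRNAs, U6 and 7SK. Many fly snoRNAs and miRNAs are cut out of introns, so an annotated start of such a gene marks the end of a processed RNA and not the place where transcription began.

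The sequences at the centre of the peaks show how AT-rich most of them were. The point source, which is base 51, is shown with the 50 bp on either side. All peaks shown lie off the chromosome arm left out here. Among the peaks off that arm, they are the 6 highest and the highest at a tRNA, an snRNA and an snoRNA gene. The sequences were read from the RefSeq copy of the dm6 assembly on the strand of the noncoding gene. Capitals mark each match to the searched motifs described further on.
lncRNA:CR44868, chr2L:15912118-15912218, plus strand: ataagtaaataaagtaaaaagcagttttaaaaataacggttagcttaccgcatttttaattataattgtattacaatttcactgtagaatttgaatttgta
lncRNA:CR46036, chr3R:17700532-17700632, plus strand: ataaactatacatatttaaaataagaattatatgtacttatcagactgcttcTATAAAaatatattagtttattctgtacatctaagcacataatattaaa
lncRNA:CR44619, chrX:12752310-12752410, plus strand: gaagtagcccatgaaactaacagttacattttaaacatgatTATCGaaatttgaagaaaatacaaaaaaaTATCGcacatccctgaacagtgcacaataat
lncRNA:CR31044, chr3R:29214394-29214494, plus strand: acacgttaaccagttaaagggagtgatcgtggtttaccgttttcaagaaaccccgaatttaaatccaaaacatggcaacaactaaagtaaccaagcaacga
asRNA:CR44429, chrX:15298420-15298520, minus strand: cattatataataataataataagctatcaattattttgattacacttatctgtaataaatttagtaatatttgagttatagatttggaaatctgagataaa
lncRNA:CR45352, chr2L:14022273-14022373, minus strand: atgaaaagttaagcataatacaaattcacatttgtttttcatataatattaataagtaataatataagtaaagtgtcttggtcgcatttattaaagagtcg
tRNA:Gln-TTG-2-1, chrX:3427717-3427817, minus strand: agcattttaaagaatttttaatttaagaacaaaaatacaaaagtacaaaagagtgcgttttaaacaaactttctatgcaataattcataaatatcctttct
snRNA:U6:96Ac, chr3R:24557039-24557139, plus strand: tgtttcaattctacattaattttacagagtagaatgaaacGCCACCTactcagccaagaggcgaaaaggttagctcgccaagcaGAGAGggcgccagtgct
snoRNA:Psi18S-525a, chr2L:20417845-20417945, plus strand: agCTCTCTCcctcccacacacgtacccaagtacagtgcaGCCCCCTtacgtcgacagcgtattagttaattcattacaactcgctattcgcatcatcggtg

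In 5 of these 9 windows no searched motif matched. Their GC content ran from 17.8% at asRNA:CR44429 to 50.5% at snoRNA:Psi18S-525a. The strongest peak, at lncRNA:CR44868, had 21.8% GC and no match. The window at lncRNA:CR46036 held a TATA box match, that at lncRNA:CR44619 held the BEAF-32 core more than once, and those at snRNA:U6:96Ac and snoRNA:Psi18S-525a held matches to the GAGA repeat and the CTCF core. A match describes letters and not a bound site.

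The peaks at noncoding starts were found again in the replicates. Of the 251, 226 had a peak within 100 bp in all 3 replicate lists, or 90.0% (95% Wilson interval 85.7% to 93.2%), against 88.9% of the whole reproducible list. A further 23 were in 2 lists, 2 were in 1 list, and 0 were in none. The highest of those missing from at least 1 list, at lncRNA:CR45632, ranked 1478. Each replicate list held 30000 peaks, so a match could rank far below the 9624 strongest. A peak at lncRNA:CR44526 was matched in replicate 3 at rank 19441. The authors' list was set by agreement between replicates and held the 9624 pooled peaks of highest signal, so a high share was built in. When each replicate's 9624 strongest peaks were classified by the same rule, they held 252, 247 and 232 peaks at noncoding starts only, or 2.53% ± 0.108 (SD, n = 3). The intervals here cover counting error only, and neighbouring peaks are not independent of each other.

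Most of the peaks belonged to lncRNA genes. By the nearest gene, 178 were at lncRNAs, 25 at asRNAs, 16 at tRNAs, 13 at miRNAs, 9 at snoRNAs and 6 at snRNAs, and 4 were at other noncoding genes, which were Uhg4, Uhg3, RNaseMRP:RNA and snoRNA:Or-ACA9. They named 235 distinct genes. At 15 genes there were 2 or more peaks, with 3 at most, and 32 peaks had 2 or more noncoding genes within reach. In 31 cases the next such peak lay within 5000 bp, so the 251 are not separate loci throughout. In 17 peaks the deposited interval also held another point source of the list.

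The median signal of the 251 was 459, with a range of 201 to 13793, against 469 at coding starts and 421 away from starts. Of the 251, 33 ranked among the 1000 strongest peaks of the list, or 13.1% (95% Wilson interval 9.52% to 17.9%), against 13.4% of the peaks at coding starts, 8.14% of those away from starts and 10.4% of all. Relative to coding starts, the log2 ratio of median signals was 0.09, 0.02 and -0.27 in replicates 1, 2 and 3, a mean of -0.05 ± 0.19 (SD, n = 3; exact two-sided sign-flip permutation p = 1). The replicates did not share a direction here, and the value depended on how many peaks were taken. Over all 30000 peaks of each replicate the ratio was -0.76, lower in 3 of 3, and over the 4812 strongest it was 0.14, higher in 3 of 3 (exact sign-flip permutation p = 0.25 for each). Relative to peaks away from starts, the ratio was 0.05, 0.07 and 0.13, a mean of 0.09 ± 0.04 (SD, n = 3; exact sign-flip permutation p = 0.25), higher in 3 of 3. With a limit of 250 bp it was 0.03 and the replicates no longer shared a direction (exact sign-flip permutation p = 1). With 3 replicates the smallest two-sided p of this test is 0.25, so no difference in this text can pass 0.05. A difference is set beside the SD instead. That SD covers only the spread between replicates, which share most of these peaks. It leaves out the counting error over the peaks, so a small SD does not make a difference certain.

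The highest peak lay in an intron of beat-Ib, at the start of lncRNA:CR44868 (2L, 15911601 to 15912709). Its signal was 13793, rank 12 of all 9624, and its values in replicates 1, 2 and 3 were 5879, 3704 and 4271, which ranked 15, 13 and 18. A second peak, at lncRNA:CR44867 and ranked 364, lay 899 bp from it, with 1140, 920 and 1256. Both lay in 3 of 3 replicates lists. beat-Ib belongs to the Beat family of axon guidance proteins.

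The peak at lncRNA:CR44339 came next, at rank 90, 4222 bp from the nearest coding start, that of Psc, a Polycomb group gene. Its signal in replicates 1, 2 and 3 was 2463, 2073 and 2290. lncRNA:CR46036 (3R, 17700291 to 17700878) lay in an intron of osa, which encodes a subunit of the Brahma chromatin remodelling complex, with 2223, 1659 and 2233. lncRNA:CR44619 (X, 12750700 to 12752631) had 1884, 1499 and 2188. Within replicates 1, 2 and 3 these peaks ranked 105 to 181, 69 to 136 and 97 to 114, so their lower signals in replicate 2 did not go with lower ranks.

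The peak at lncRNA:CR31044 (3R, 29214177 to 29214723) had 1791, 1632 and 1843 in replicates 1, 2 and 3. A weaker peak, at mir-279, whose miRNA is known to limit the formation of CO2-sensing neurons, lay 893 bp away on the same arm with 127, 57.6 and 43.4. The peak at lncRNA:CR31044 was the higher of both in 3 of 3 replicates. asRNA:CR44429 (X, 15298225 to 15298788) was the highest asRNA peak, with 1472, 1176 and 2059, in an intron of gce, a juvenile hormone receptor gene, 539 bp from a coding start. lncRNA:CR44749, in an intron of HmgD, which encodes a chromatin protein of the HMG-box family, had 2136, 1341 and 1175.

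lncRNA:CR45352 and lncRNA:CR31840, on 2L, had peaks 1767 bp apart that ranked 261 and 563. The first had 1349, 1077 and 1590 in replicates 1, 2 and 3, and the second 815, 1101 and 534, and by rank within a list replicate 3 was the highest for one and the lowest for the other. lncRNA:CR43399 lay in an intron of ena, which promotes actin filament growth, and had 1481, 936 and 1076. Among the others of the 20 highest, lncRNA:CR42657 lay 678 bp from a start of nej, the fly CBP acetyltransferase, and lncRNA:CR44761 lay 3159 bp from a start of RYBP, a Polycomb-associated gene. lncRNA:CR34052 lay in an intron of Raf, a kinase of the MAP kinase pathway. lncRNA:CR43626, lncRNA:CR45541, lncRNA:CR44676 and lncRNA:CR45251 completed them with Hsromega and one snoRNA gene.

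**Figure D1:**
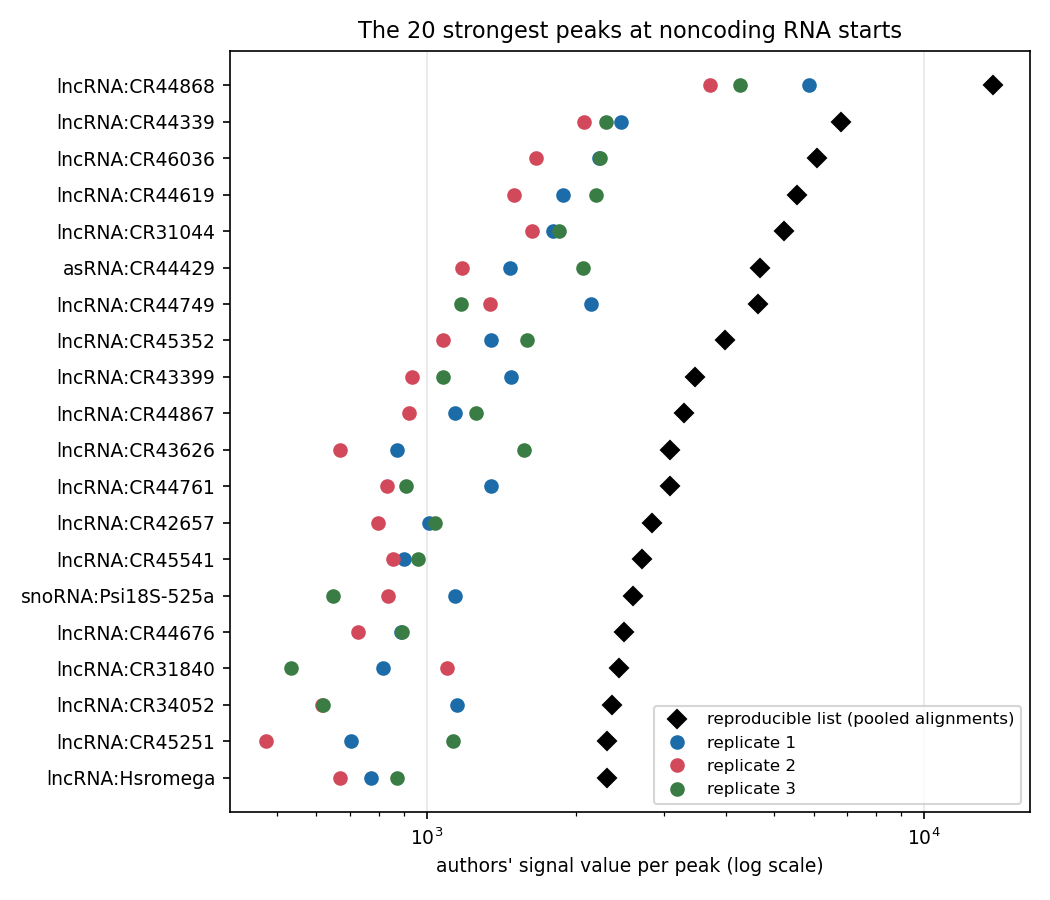
Authors' signal value on a log axis for the 20 strongest peaks at noncoding starts, with diamonds for the reproducible list and circles for the 3 replicates. The peak at lncRNA:CR44868 stands at 13793, with replicate values of 3704 to 5879, above every other peak shown, and pooled values lie above those of single replicates.

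Among named lncRNAs, the RNA of the heat shock locus Hsromega, which forms nuclear omega speckles, had a peak 186 bp downstream of a start (3R, 21296065 to 21296820). Its signal was 774, 669 and 871 in replicates 1, 2 and 3, rank 612 of the reproducible list. The piRNA precursor flam, which keeps gypsy-family transposons silent in the ovary, had one 176 bp upstream, with 326, 221 and 320. Both were found in 3 of 3 replicates.

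roX1 and roX2, the RNAs of the dosage compensation complex that coats the male X chromosome, both had a peak at a start, but both were near the bottom of the list. The roX1 point source lay 7 bp from a start, with signals of 74.1, 71.9 and 65.6 in replicates 1, 2 and 3 and rank 8903 of 9624. That of roX2 lay 62 bp from a start, with 149, 54.8 and 22.0 and rank 9131. Within replicates 1, 2 and 3, roX1 ranked 11167, 8750 and 10444 of 30000 and roX2 ranked 5568, 11205 and 21830, so the rank of roX2 varied more. The embryos were of both sexes, and the share of males was not given.

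Other listed lncRNAs had no such peak. The 3 Hox complex RNAs, bxd, iab4 and iab8, had their nearest reproducible peak 1402 to 3670 bp away. Of 8 other named lncRNAs, flam had one and yar, acal, CRG, sphinx, let7C, cherub and noe had none, with the nearest peak 1559 bp away at acal and 16960 bp away at yar. Absence from this list is not absence of binding, since it holds only peaks past the authors' threshold.

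Around the lncRNA genes, peaks at starts came in a few groups. On 3R, 5 peaks at lncRNA:CR45640, lncRNA:CR45639, lncRNA:CR45637, lncRNA:CR45642 and lncRNA:CR45641 had point sources from 16208322 to 16214048. Their signals in the reproducible list ran from 291 to 530, so all were of middle or low rank. lncRNA:CR45564, also on 3R, had 3 peaks of its own, with signals of 609, 307 and 296.

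asRNA peaks lay upstream of the start they were assigned to more often than not. Of 25, 21 were upstream, or 84.0% (95% Wilson interval 65.3% to 93.6%), and the replicates' own peaks gave 80.0%, 82.1% and 80.0%. The next highest after asRNA:CR44429 were asRNA:CR46105, inside Moca-cyp, 504 bp from a coding start, and asRNA:CR45999. For lncRNAs, 100 of 178 were upstream, or 56.2% (48.8% to 63.3%), and the replicates gave 53.2%, 55.4% and 56.8%. The asRNA values lay above the lncRNA values in 3 of 3 replicates, and this difference was not tested beyond that. The rule removes places within 500 bp of coding starts. Where a coding start lies downstream of an asRNA start, downstream peaks cannot be counted. The point sources at asRNA:CR44429, asRNA:CR46105 and asRNA:CR45028 lay 539, 504 and 512 bp from a coding start. The part of the rule in the asRNA share was not tested.

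tRNA genes, whose promoters lie within the transcribed part, had 16 of the peaks. The highest, at tRNA:Ile-AAT-1-8 in an intron of ATP8A, had signals of 521, 427 and 326 in replicates 1, 2 and 3, and a weaker one 200 bp away had 203, 85.3 and 39.3. tRNA:Gln-TTG-2-1 (X, 3427558 to 3427938) had 431, 343 and 438, and tRNA:Lys-TTT-1-1 (2L, 8290863 to 8291240), in an intron of Btk, had 394, 259 and 241. These 3 genes stood above the rest, of which tRNA:Arg-CCT-1-2 had 283, 179 and 132 and tRNA:Leu-CAG-1-1 had 213 and 158 in replicates 1 and 3 with no matched peak in replicate 2. The tRNA B box core was found in 0 of the 251 windows (95% Wilson interval 0% to 1.51%). It was in 3, 2 and 1 windows of the strongest peaks of replicates 1, 2 and 3. The point sources of these 3 highest peaks lay 276, 244 and 333 bp from the tRNA start, beyond the 50 bp that a window reaches. The count therefore cannot tell whether the tRNA promoters near these peaks held the motif. In all, 12 of the 16 tRNA peaks were matched in 3 lists.

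snRNA genes had 6 peaks, all matched in 3 of 3 replicates and all outside coding genes. The highest lay between snRNA:U6:96Ab and snRNA:U6:96Ac, 126 bp upstream of the latter, and had 311, 232 and 217 in replicates 1, 2 and 3. The peak at snRNA:7SKa, the RNA that holds the elongation factor P-TEFb inactive, had 258, 198 and 93.1. snRNA:U5:63BC had 212, 185 and 86.1, snRNA:U1:95Ca had 162, 142 and 76.0, snRNA:U2:34ABb had 124, 174 and 65.3, and snRNA:U1:21D had 75.8, 117 and 52.5. By rank within a list, replicate 3 was the lowest for all 6. Of the 29 listed U snRNA genes, 6 had a peak of this kind, with the U6:96Ab and U6:96Ac genes sharing 1. The start of snRNA:U2:34ABb itself lay 489 bp from a coding start, while its point source lay 672 bp from one. snRNA:7SKa is not among the 29.

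The snoRNA peaks were led by snoRNA:Psi18S-525a, in an intron of Arpc2, a subunit of the Arp2/3 actin nucleating complex (2L, 20417593 to 20418245). Psi snoRNAs guide the change of uridine to pseudouridine in ribosomal RNA. This peak had 1138, 836 and 649 in replicates 1, 2 and 3, and its point source lay 805 bp from a start of Arpc2. snoRNA:Psi18S-301 had 609, 543 and 337, with the point source 39 bp from the annotated start and outside coding genes. snoRNA:Or-CD13 had 386, 316 and 496, snoRNA:Or-CD14 had 427, 259 and 292, and snoRNA:185 had 437, 241 and 109. In each replicate the first of these was the highest.

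The hosts from which many snoRNAs are cut are noncoding genes themselves. Uhg4 had a peak ranked 972, upstream of a start, with 610, 515 and 613 in replicates 1, 2 and 3. Uhg3 had one ranked 8184, 17 bp upstream, with 147, 53.3 and 50.8. The Uhg4 peak was higher than that of Uhg3 in 3 of 3 replicates. Uhg2, Uhg5 and Uhg8 also had a peak within 77 bp of a start, but a protein-coding start lay within 500 bp of it, so these are not among the 251. Of the small RNAs of RNA processing and secretion, RNaseMRP:RNA had a peak, with 132 and 58.8 in replicates 1 and 2 and no match in replicate 3, and RNaseP:RNA and both 7SL genes had none.

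miRNA genes had 13 peaks, among them those at mir-4974, in an intron of CG8671, and at mir-9377, in an intron of Tis11, which encodes an mRNA decay factor. mir-4974 had 1108, 594 and 547 in replicates 1, 2 and 3, and mir-9377 had 539, 507 and 742. The bantam gene mir-ban, whose miRNA blocks cell death and drives growth, had 251, 184 and 334. mir-34, known for its role in ageing, had 110, 140 and 94.2. Of these 4, each was found in 3 of 3 replicates.

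By counts that differ in some ways, a noncoding gene had a peak at its start less often than a protein-coding gene. Of the 3278 noncoding genes with a start farther than 500 bp from coding starts, 263 had one of the 251 peaks within 500 bp, or 8.02% (95% Wilson interval 7.14% to 9.003%), and the replicates gave 7.85% ± 0.595 (SD, n = 3). The share over 13968 protein-coding genes, counting any reproducible peak within 500 bp, was 32.0%, while peaks also near a coding start were not counted for noncoding genes. Protein-coding genes also had more starts each, with 19630 for 13968 genes against 4044 for 3880 noncoding genes. By kind the noncoding share was 9.97% of 1695 lncRNAs (replicates 9.50% ± 0.257), 20.7% of 29 snRNAs (18.4% ± 1.99) and 9.30% of 258 tRNAs (12.1% ± 4.74). It was 5.02% of 658 miRNA entries, where the precursor and the mature RNAs count separately, 4.88% of 328 asRNAs and 4.58% of 240 snoRNAs. The snRNA share was the highest in 3 of 3 replicates, from few genes, and its interval of 9.85% to 38.4% overlaps that of lncRNAs. The 29 snRNA genes here all had a start farther than 500 bp from coding starts. They are not the same set as the 29 listed U snRNA genes, which include snRNA:U2:34ABb with its start at 489 bp. The tRNA share differed between replicates, at 16.3%, 13.2% and 6.98%.

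**Figure D2:**
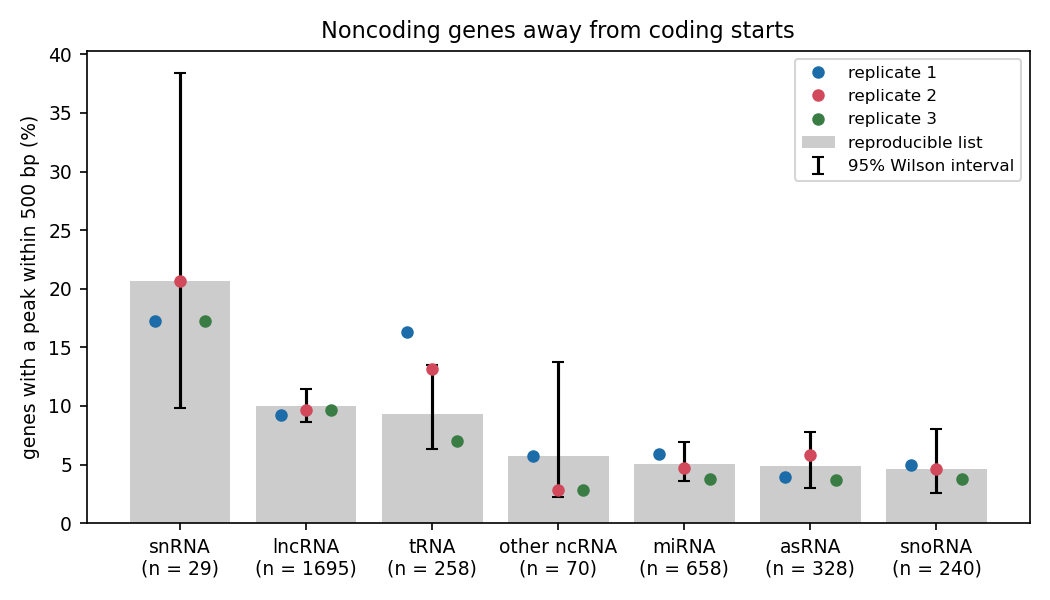
Share of noncoding genes with a peak within 500 bp of a start, for genes away from coding starts, with the reproducible list as bars with 95% Wilson intervals and the replicates as points. The snRNA bar reaches 20.7% and the lncRNA bar 9.97%, and the tRNA points spread from 6.98% to 16.3%.

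The share was also set out by whether the start lay inside a coding gene. Over all kinds, starts outside coding genes had a peak in 9.93% of 1803 genes (replicates 9.45% ± 0.593) and starts inside them in 5.69% of 1475 (5.90% ± 0.822), higher outside in 3 of 3 replicates. The kinds are mixed differently on each side, since 1266 of the genes outside and 429 of those inside are lncRNAs. Within lncRNAs the shares were closer, at 10.6% outside (9.77% ± 0.405) and 8.16% inside (8.70% ± 0.269). Within miRNA entries they were 5.18% of 251 and 4.91% of 407, and within tRNAs 9.22% of 141 and 9.40% of 117, with replicate SDs larger than the differences. For snoRNAs the shares were 11.3% of 53 outside and 2.67% of 187 inside, and for asRNAs 12.2% of 41 and 3.83% of 287. Across the arms 2L, 2R, 3L, 3R and X the share ran from 7.66% to 8.75%, while chromosomes 4 and Y had 0 of 23 and 0 of 28 genes.

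For lncRNAs, the share also varied with the distance to the nearest coding start, taken over all starts of a gene, with genes left out where 1 of them was within 500 bp. It was 6.90% of 174 genes at over 500 to 1000 bp, 15.4% of 266 at 1000 to 2000 bp, 11.5% of 478 at 2000 to 5000 bp, 8.71% of 356 at 5000 to 10000 bp and 7.32% of 410 beyond 10000 bp. The replicate means were 5.17% ± 0.575, 14.8% ± 1.21, 11.2% ± 0.435, 8.15% ± 0.562 and 7.24% ± 0.614. The share was highest at 1000 to 2000 bp in 3 of 3 replicates and lowest at under 1000 bp, where the rule itself removes peaks within 500 bp of the coding start.

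Of the 251 peaks, 170 lay outside protein-coding genes, or 67.7% (95% Wilson interval 61.7% to 73.2%), 74 in introns and 7 in exons. Of the 81 inside, 58 were assigned to a noncoding gene on the strand opposite to the host, 22 to one on the same strand and 1 had hosts on both. The median distance to a coding start was 3159 bp, and 43 peaks lay beyond 10000 bp. The nearest coding start of all was 504 bp away, and for 212 peaks it was beyond 1000 bp.

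Per length of genome, peaks were denser near noncoding starts than over all sequence away from starts. The 2.57 Mb within 500 bp of noncoding starts and beyond 500 bp of coding starts held 97.8 peaks per Mb. The 15.3 Mb near coding starts held 253 per Mb and the 116 Mb away from starts held 47.4. In the replicates the density near noncoding starts was 2.06 ± 0.206 times that away from starts and 0.364 ± 0.0133 times that near coding starts (SD, n = 3), in the same direction in 3 of 3. The 116 Mb took in all other sequence of the 6 arms counted. Flanks 1000 to 2000 bp away gave a nearer comparison, around 1754 noncoding starts more than 3000 bp from coding starts. In the replicates the 400 bp upstream held 1.57 ± 0.0737 times the density of these flanks, and the 400 bp downstream 0.867 ± 0.0688 times. Within these 400 bp the density was therefore higher than in the flanks upstream only. Farther downstream, from 400 to 600 bp, it was 12.3, 9.69 and 11.7 point sources per kb per 100 starts in replicates 1, 2 and 3. The flanks held 7.16, 7.04 and 7.35.

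Relative to the start, 148 of the 251 peaks were upstream, or 59.0% (95% Wilson interval 52.8% to 64.9%), against 80.4% (79.1% to 81.6%) of the 3879 peaks at coding starts. The difference was -20.2, -18.2 and -25.4 percentage points in replicates 1, 2 and 3, a mean of -21.3 ± 3.72 (SD, n = 3; exact sign-flip permutation p = 0.25, the smallest possible). Each value was larger than the SD, and the mean was -10.7 with a limit of 250 bp and -13.1 over all 30000 peaks of each replicate. The rule removes places near coding starts from the window, and its part in this difference was not tested over all genes.

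At lncRNA starts far from coding starts, the upstream and downstream sides were counted separately. Around 1118 lncRNA starts with no coding start within 3000 bp, the 400 bp upstream held 63 reproducible point sources, or 14.1 per kb per 100 starts (95% Poisson interval 10.8 to 18.02). The 400 bp downstream held 6.93 and the flanks 1000 to 2000 bp away on either side held 8.09 (6.96 to 9.36). In the replicates the upstream density was 1.77 ± 0.0197 times that of the flanks and the downstream density 0.858 ± 0.036 times (SD, n = 3). The replicates read the same starts, so this SD does not cover the choice of starts. The next 200 bp downstream, from 400 to 600 bp, held 33 point sources or 14.8 per kb per 100 starts, as many as any upstream bin, in the reproducible list, with 33, 29 and 32 in the replicates. Around 143 such tRNA starts the upstream density was 1.21 ± 0.368 times that of the flanks, within 1 SD of no difference.

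**Figure D3:**
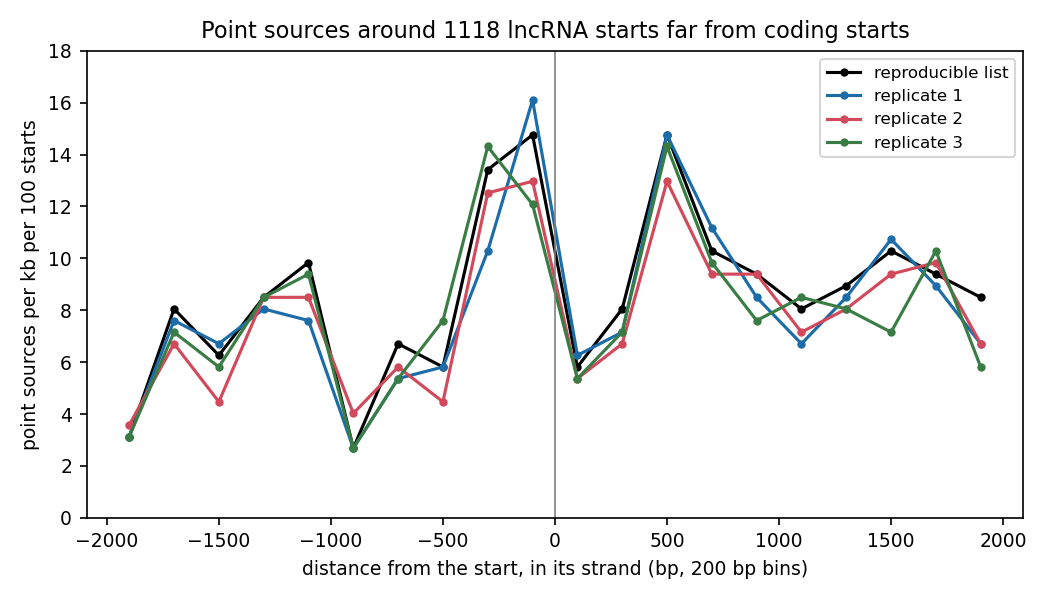
Point sources per kb per 100 starts in 200 bp bins around 1118 lncRNA starts more than 3000 bp from any coding start, with the start at 0 and upstream to the left, for the reproducible list and the 3 replicates. The bins just upstream hold 13.4 and 14.8, the bin just downstream 5.81, and the bin from 400 to 600 bp downstream 14.8 in the reproducible list.

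The centres of the peaks were poorer in GC than their surroundings. The median GC content of the point source with 50 bp on either side was 31.7%, against 33.7% at coding starts and 30.7% away from starts. The differences in the replicates averaged -1.65 ± 1.14 percentage points from coding starts and 1.32 ± 0.572 from peaks away from starts (SD, n = 3; exact sign-flip permutation p = 0.25 for each), with 1 direction in 3 of 3 replicates. The difference from coding starts changed direction in some settings. The mean difference from peaks away from starts stayed positive in every setting, but not in each replicate. The difference from coding starts was -0.660 with a limit of 250 bp (exact sign-flip permutation p = 0.75) and 0.660 over the 4812 strongest peaks. The difference from peaks away from starts was 0.660 with 1 start per gene and 0.330 over the 4812 strongest peaks (exact sign-flip permutation p = 1 for each). With 150 bp on either side the difference from coding starts turned to 0.997. The mean over 51 bp at noncoding starts was 33.7% at the point source and 44.4% at 250 bp to the right, against 34.7% and 42.9% at coding starts.

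**Figure D4:**
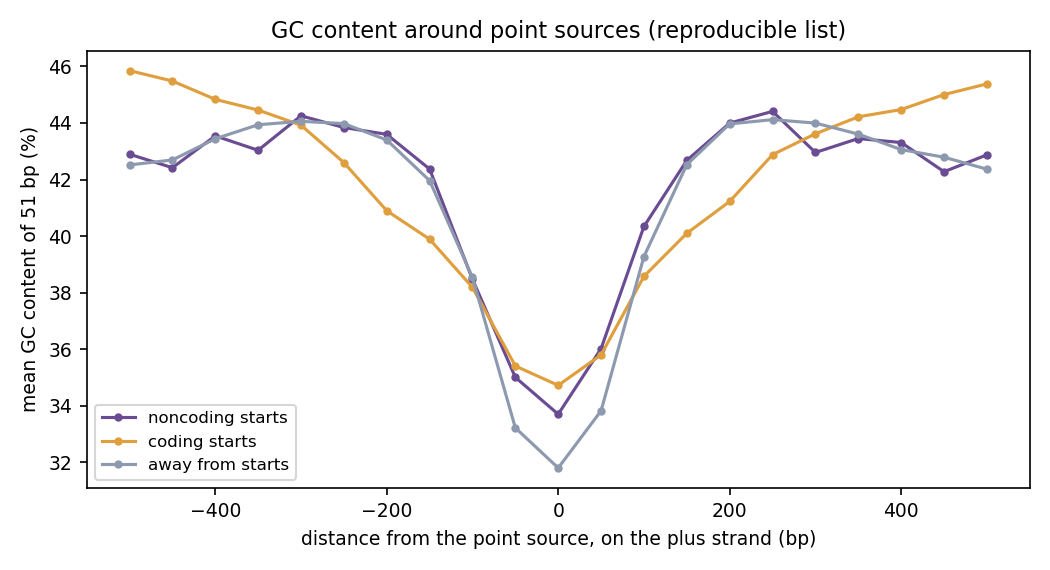
Mean GC content of 51 bp windows against distance from the point source on the plus strand, for the 251 peaks at noncoding starts, the peaks at coding starts and those away from starts. The curve at noncoding starts goes from 33.7% at the point source to 44.4% at 250 bp, where it runs close to the curve away from starts, while at the point source it lies nearer to the 34.7% of coding starts than to the 31.8% away from starts.

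Motifs known from housekeeping promoters of the fly were counted less often at noncoding than at coding starts, while the TATA box was about as frequent. In all, 12 motifs were read on both strands in the point source and 50 bp on either side. The element DRE was searched as TATCGATA. The BEAF-32 core was CGATA, which lies within that element, so every DRE match is also a core match. The core of promoter motif 1, bound by M1BP, was GGTCACAC and the Zelda motif CAGGTAG. The GAGA repeat was searched as the word GAGAG, the E-box as CACGTG, the TATA box as the word TATAAA and the initiator as TCAGT. The A-tract was AAAAAAAA, the AT repeat was ATATATAT, the CTCF core was AGGNGGC and the tRNA B box core was GTTCGANNC. Each motif was also counted in windows 500 bp to either side, and the share at the point source minus that in the flanks is called the excess.

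The BEAF-32 core was in 23 of 251 windows at noncoding starts, or 9.16% (95% Wilson interval 6.18% to 13.4%), the same as their flanks. At coding starts it was in 22.4% (21.1% to 23.7%) with an excess of 10.5 points, and away from starts in 10.8%. BEAF-32 is an insulator protein that binds near many housekeeping promoters. The excess at noncoding starts differed from that at coding starts by -11.2, -13.0 and -10.1 points in replicates 1, 2 and 3, a mean difference of -11.5 ± 1.46 (SD, n = 3; exact sign-flip permutation p = 0.25). Against peaks away from starts the difference was -0.76 ± 1.81, smaller than its SD.

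DRE, the element bound by the replication-related factor DREF, was in 0.398% of the windows at noncoding starts, 1 of 251, in 3.79% at coding starts and in 0.255% away from starts. The motif 1 core was in 0 of 251 (95% Wilson interval 0% to 1.51%), in 2.42% at coding starts and in 0.364% away from starts. Low shares were therefore not particular to noncoding starts. The excess of DRE was lower at noncoding than at coding starts in 3 of 3 replicates, with a mean difference of -3.67 ± 0.847 points, and that of motif 1 likewise, with -2.16 ± 0.857 (SD, n = 3; exact sign-flip permutation p = 0.25 for each).

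The TATA box was in 57 of 251 windows, or 22.7% (95% Wilson interval 17.96% to 28.3%), close to 22.5% at coding starts and 24.97% away from starts. Its excess over the flanks in the replicates was 5.94 ± 2.13 points at noncoding starts, 12.5 ± 2.22 at coding starts and 13.1 ± 1.73 away from starts. The difference from coding starts was -6.55 ± 0.142 and from peaks away from starts -7.16 ± 0.877 (SD, n = 3; exact sign-flip permutation p = 0.25 for each). The mean share in the flanks over the replicates was 16.0% at noncoding starts, 9.47% at coding starts and 11.1% away from starts. At the point source the share differed from that at coding starts by -0.05 ± 1.56 points. The lower excess against coding starts therefore lay mostly in the flanks. The SDs of these differences leave out the counting error over the windows. The excess at noncoding starts was 10.2 points with a limit of 1000 bp and 10.3 with 150 bp on either side. These letters are AT-rich, as the centres of all peaks are, and the part of base composition was not tested.

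The CTCF core was in 11 of the 251 windows, or 4.38% (95% Wilson interval 2.46% to 7.68%), against 2.29% (1.87% to 2.81%) at coding starts and 1.71% (1.40% to 2.09%) away from starts. CTCF is an insulator protein. The share in the replicates was higher than at coding starts by 2.79 ± 1.33 points and than away from starts by 3.15 ± 1.51 (SD, n = 3; exact sign-flip permutation p = 0.25 for each), in 3 of 3 replicates. The excess over the flanks at noncoding starts was 1.47 ± 1.97, smaller than its SD, and turned to -1.33 with a limit of 1000 bp. It was -2.88 ± 0.417 at coding starts and -2.03 ± 0.337 away from starts (SD, n = 3). In those 2 kinds of peak the core was thus less frequent at the point source than in the flanks. The GAGA repeat was less frequent at the point source than in the flanks in each kind of peak, with an excess of -3.91 ± 2.82 points at noncoding starts. That excess was -7.13 over the 4812 strongest peaks and -0.667 over all peaks, where the replicates did not share a direction (exact sign-flip permutation p = 0.75). Adjusted over the 12 motifs by Benjamini-Hochberg, the lowest exact sign-flip permutation p for an excess at noncoding starts was 0.75.

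**Figure D5:**
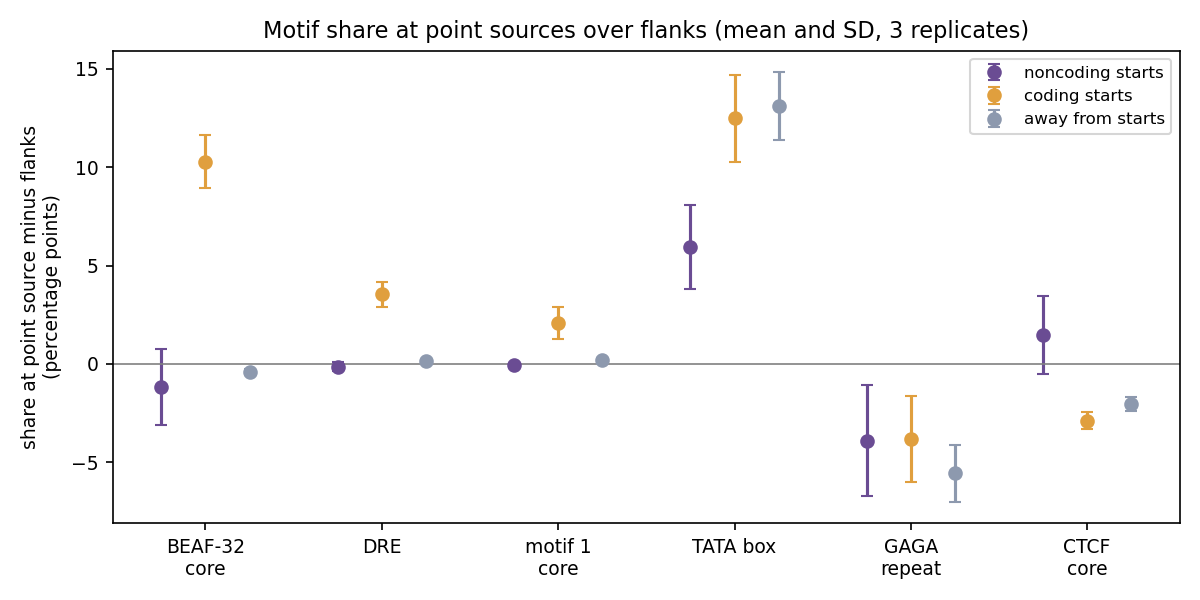
Share of windows of 50 bp on either side of the point source with a motif minus that in flanking windows, in percentage points, as mean and SD over the strongest 9624 peaks of 3 replicates, for peaks at noncoding starts, at coding starts and away from starts. At coding starts the BEAF-32 core stands at 10.3 and at noncoding starts at -1.17, and the TATA box stands at 12.5 and 5.94.

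The limits of the rule passed through peaks of all strengths. Just inside the 500 bp limit to a noncoding start lay peaks at lncRNA:CR45564 (494 bp, signal 296), lncRNA:CR45277 (498 bp, 635) and lncRNA:CR44585 (498 bp, 419). Just outside lay those near lncRNA:CR45668 (502 bp, 207), lncRNA:CR44363 (502 bp, 2372) and lncRNA:CR44587 (504 bp, 271). At the limit to coding starts, asRNA:CR46105 (504 bp, 1952), lncRNA:CR44831 (504 bp, 368) and asRNA:CR45028 (512 bp, 1595) were just inside, and peaks at asRNA:CR46044 (479 bp, 1168), lncRNA:CR45010 (488 bp, 2557) and lncRNA:CR45739 (489 bp, 230) just outside. Signals on either side of each limit overlapped.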

How the data were processed

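ChIP-seq peak lists of 3 biological replicates in 1 group were used. Per the labels and file headers, the authors deposited on dm6 a list per replicate, a list on pooled alignments and a reproducible list (the optimal set by irreproducible discovery rate). Each deposited list gives a signal value of unstated scale, a −log10 q-value and the offset of the point source. The reproducible list had 1 distinct q-value and held the 9624 pooled peaks of highest signal; the other lists held 30000 peaks each. For the aligner, peak caller and thresholds, the entry is: not given in the sources used here.

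Starts came from Ensembl release 115 and sequence from RefSeq Release 6, both the dm6 build, and 0 peaks fell outside it. The 9624 strongest peaks of each replicate gave mean ± SD and exact two-sided sign-flip permutation tests over 3 replicates. Peaks matched within 100 bp. Python 3.11.15, numpy 2.4.6, pandas 2.3.3, scipy 1.17.1 and matplotlib 3.10.9 were used, and functions were tested on simulated data. The genes named are the 20 highest, up to 5 of each of tRNA, snRNA and snoRNA, listed genes and those nearest the limits. miRNA, asRNA and grouped lncRNA examples, snRNA:7SKa, and the density, location and profile values were added after values were seen. The peaks and lists were chosen with earlier results of these data known. Sequences on 1 chromosome arm are not reported here.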

Additional observations from a re-analysis of the deposited data

How the results depend on the processing

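Limits of 250 and 1000 bp gave 163 and 382 peaks, shares of peaks of 1.67% and 3.82% and shares of noncoding genes of 4.87% and 13.6%. Taking only the 5′ end of each gene gave a share of peaks of 2.70%. The 4812 strongest peaks of each list gave 130 peaks, 4.06% of genes, a log2 signal ratio to coding starts of 0.14 and a GC difference from coding starts of 0.660 points, both turned in direction. All peaks of each list gave 2.87% of peaks, 24.2% of genes and a log2 signal ratio to coding starts of -0.76. Windows of 150 bp on either side turned that GC difference to 0.997. Matching within 50 or 200 bp gave 74.1% or 96.4% of peaks matched in all lists.

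Leaving out 1 replicate each gave 231 to 238 of the peaks matched in both remaining lists, or 92.0% to 94.8%, a share of peaks of 2.49% to 2.59%, 7.64% to 8.19% of genes, log2 signal ratios to coding starts of -0.126 to 0.0566, positive without replicate 3, and to other peaks of 0.06 to 0.10, GC differences of -1.98 to -0.990 and 0.990 to 1.49, and upstream differences of -22.8 to -19.2.

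Motif excesses at noncoding starts, between -3.91 and 5.94 points in the report, turned as follows. Motif 1 gave 0.098, 0.0429 and 0.120 with 250 bp, all peaks and the wider window. Zelda gave -0.532 and -0.0946 with 250 bp and the wider window, and -0.101 to 0.323 without 1 replicate. The initiator gave 2.95, 1.499, 2.87 and 8.73 with 250 bp, 1000 bp, all peaks and the wider window. The 4812 strongest gave 2.03 for the A-tract, which ran from -1.39 to 0.424 without 1 replicate, and -0.646 for the AT repeat. The CTCF core gave -1.33 with 1000 bp and the B box -0.399 with the wider window. The causes were not tested. Differences between kinds of peak were taken within each replicate and are paired in that sense; with 1 group no other pairing exists. The read depth behind the peaks is unknown, so what it limits could not be measured.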
